A study of Xenopus laevis with 8 samples.

Results

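Forkhead transcription factors were examined in foregut endoderm of Xenopus laevis, on 8 Affymetrix arrays with 1 sample each. The family was taken as every probe set whose gene name in the deposited annotated table begins with fox followed by a letter and a digit, or is an older Xenopus forkhead name beginning with fkh or fd, with a leading x ignored. This gave 21 of the 15611 probe sets on the array, and 15491 probe sets remained for testing once 120 controls were set aside. All 21 matched a RefSeq entry (assembly Xenopus_laevis_v10.1), for 17 distinct genes. In 4 samples, foregut explants taken at stage 15 were cultured to stage 23 intact, with their mesoderm, and the endoderm was then isolated. In the other 4 the endoderm was isolated at stage 15 and cultured alone to stage 23. The labels number the samples set 1 to set 4 in each condition, without saying whether sets are separate clutches, animals or days, so the tests measure the spread between these samples, which may be technical. No strain, age or genetic alteration is given for the animals. The time at which the endoderm was isolated and the presence of mesoderm during culture cannot be told apart for any gene. In whole-tissue RNA, a lower level from fewer cells of a type and one from less RNA per cell cannot be told apart either.

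Forkhead proteins bind DNA through a winged-helix domain named after the fork head gene of Drosophila, in which loss of the gene disturbs the foregut and hindgut. In mouse endoderm the FoxA proteins act as pioneer factors: they bind compacted chromatin of foregut and liver genes before those genes are transcribed. FoxO proteins stand under insulin and growth factor control, since kinases such as Akt and Sgk phosphorylate them and keep them out of the nucleus. FoxH1 carries Nodal signals as the DNA-binding partner of Smad proteins, and FoxF1 marks the visceral mesoderm next to the gut tube in mouse and frog.

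Of 13 measured endoderm markers, 7 lay above background on all 8 arrays (among them sox17a, gata4, gata5, gata6 and hnf4a) and 3 on none (hhex, cer1 and frzb2), and none of the 13 was called different between the conditions. Median intensities of the arrays ran from 127.5 to 131.2. The difference between the 3′ and 5′ probe sets of beta-actin, a sign of RNA or labelling quality, ran from -0.611 to 2.32 (log2) with mesoderm and from -1.32 to 2.43 alone. It was nearly equal within set 1 (2.32 with mesoderm and 2.43 alone) and far apart within set 4 (1.00 with mesoderm and -1.32 alone).

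Most forkhead probe sets stayed under the 95th percentile of the negative controls on every array. Background was set by 44 Affymetrix probe sets for 27 bacterial and 17 tag sequences, and a probe set counted as above background on an array when it exceeded the 95th percentile of these controls there. That limit stood 1.23 to 1.60 log2 units over the mean of the controls, or 47.7 to 79.5 in linear intensity. On all 8 arrays 5 forkhead probe sets exceeded it, 4 did so on some arrays and 12 on none. The share above background on all arrays was 23.8% of forkhead probe sets and 59.5% of all probe sets tested. The 5 were foxa1, foxa4.S, foxo3, foxn4 and XFD-12′. Those with a mixed record included XFD2, the first of the foxd1 probe sets and foxc2. Each probe set binds its target with its own strength, so levels are given over the controls and are not compared between genes.

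**Figure D1:**
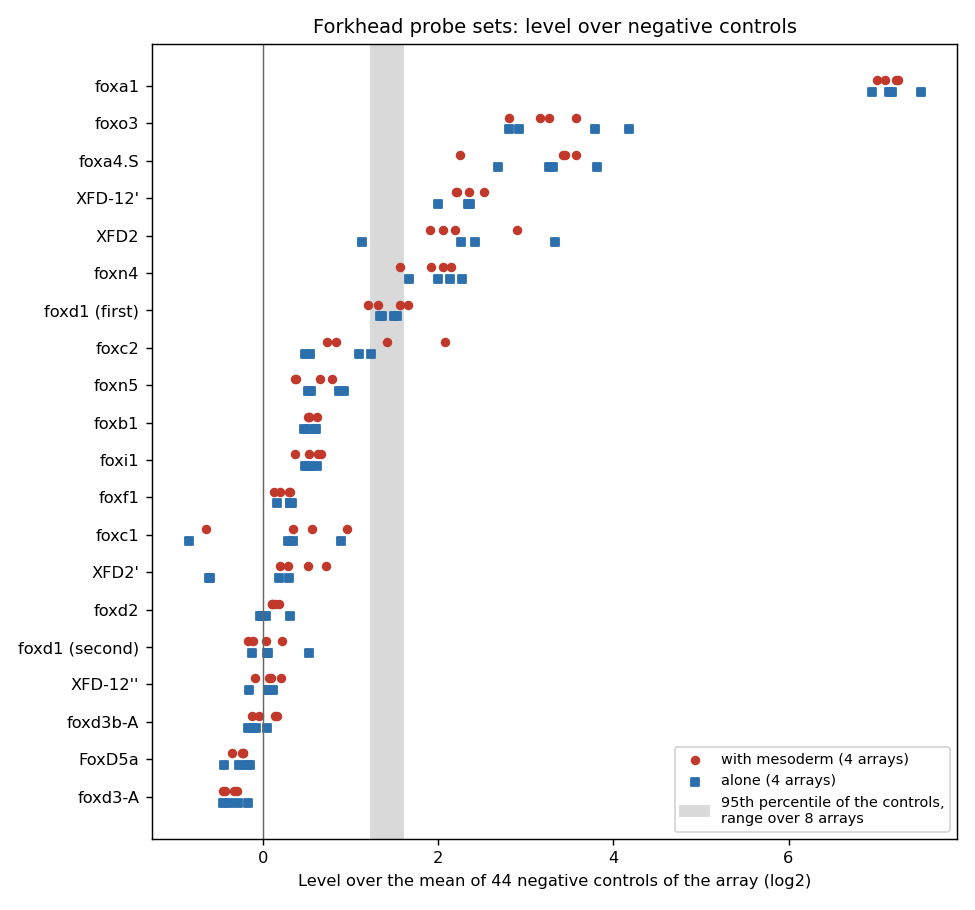
Level of 20 of the 21 forkhead probe sets over the mean of 44 negative controls of the same array, in log2 units on the horizontal axis, with red circles for the 4 arrays with mesoderm and blue squares for the 4 arrays alone. The grey band spans the 95th percentile of the controls over the 8 arrays, from 1.23 to 1.60; 12 probe sets lie left of their array's limit on every array, and foxa1 lies between 6.95 and 7.51 on all 8.

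No forkhead probe set passed the test for a difference between endoderm with mesoderm and endoderm alone. In limma with the set as a block and Benjamini-Hochberg adjustment over all probe sets, 0 were higher and 0 lower. Among all probe sets 0.387% were called, of which 0.258% of all were higher and 0.129% lower, so 0 of 21 is near what that share gives. The lowest adjusted p of a forkhead probe set was 0.183. At an unadjusted p under 0.05, 2 forkhead probe sets (XFD2′ and foxc2) were higher and 0 lower, where 3.93% of all probe sets were higher and 5.42% lower. Without the set block 0.0% of all probe sets were called, and 1 forkhead probe set (XFD2′) was higher at an unadjusted p under 0.05.

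The differences of the family had a median of 0.04 log2 units, with mesoderm minus alone, and that of all probe sets 0.01. The sign of the family's median turned after centring on the negative controls (-0.01), with array weights (-0.02) and without set 4 (-0.06). With cyclic loess and with repeated quantile normalization the median was 0.00. The median absolute difference was 0.09 for forkhead probe sets and 0.11 for all. Of the 21, 14 lay above 0 and 7 below, from -0.18 for foxo3 to 0.66 for XFD2′, where 51.6% of all probe sets lay above 0. The 95% interval of the difference lay within a 2-fold change either way for 20 of the 21, the exception being XFD2′, and within 0.5 log2 units either way for 16. These counts include 12 probe sets without signal over background. The intervals of the 5 above background on all arrays lay between -0.49 and 0.45. In all 4 sets the same way, 2 were above 0 (8.35% of all probe sets were) and 0 below (10.3% of all). The 4 arrays with mesoderm did not overlap the 4 alone for 1 forkhead probe set, XFD2′, where they lay above in 1.03% of all probe sets; as levels over the controls, the conditions overlapped for XFD2′ too.

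**Figure D2:**
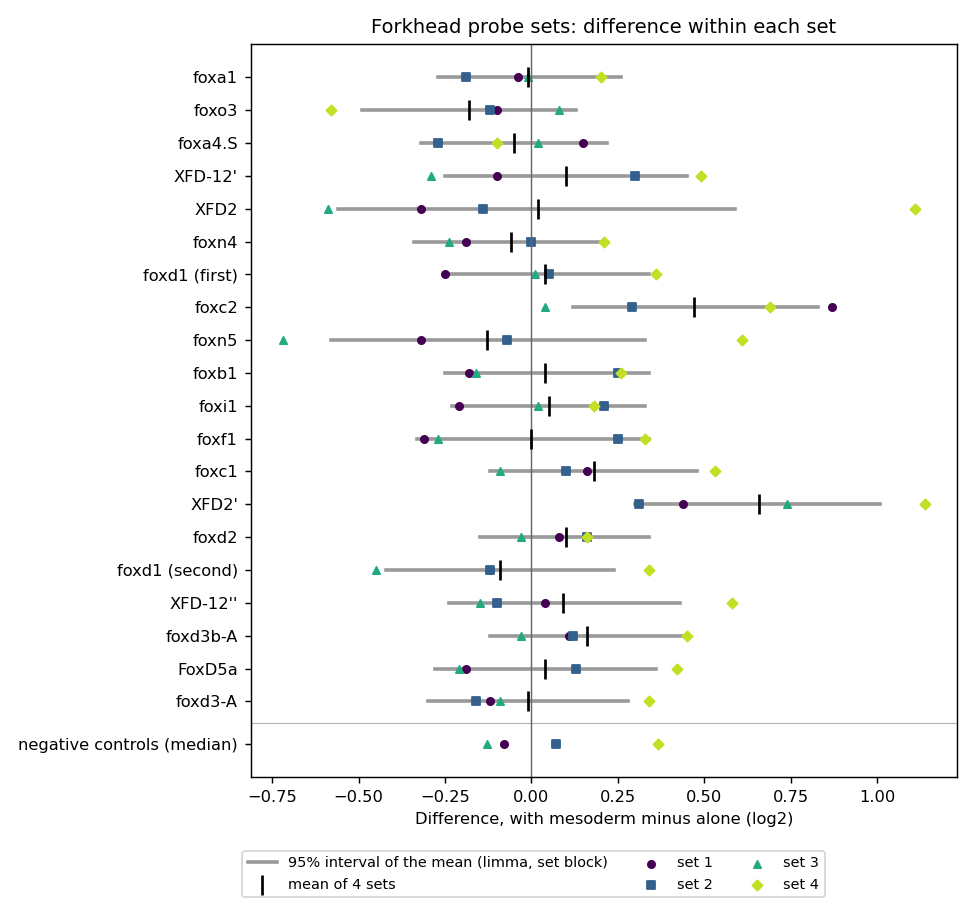
Difference between endoderm with mesoderm and endoderm alone (log2, horizontal axis) for 20 forkhead probe sets, with 1 symbol per set, the mean of the 4 sets as a black bar and its 95% interval from limma as a grey line; the lowest row gives the median of the negative controls in each set. Only the intervals of foxc2 (0.12 to 0.83) and XFD2′ (0.30 to 1.01) leave out 0, and the yellow diamonds of set 4 lie right of 0 in 18 of the 20 rows.

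Foxa1, the pioneer factor of the endoderm, had intensities of 3382, 3059.8, 3159 and 3393 in sets 1 to 4 with mesoderm, against 3467, 3484, 3175 and 2963 alone. The 4 values of each condition overlapped, and no array departed far from the others. Its level over controls averaged 7.15 ± 0.11 with mesoderm and 7.20 ± 0.23 alone (log2, SD, n = 4 each). The difference was -0.01 ± 0.16 (SD of the 4 sets), with a 95% interval from -0.27 to 0.26 and an adjusted p of 0.989. It varied by no more than 1.08-fold between the means of any pair of sets. No named probe set matched foxa2, so only foxa1 and foxa4 could be read for this subfamily.

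Foxa4.S, known in the frog from the organizer, notochord and floor plate, gave 265, 223, 248 and 125 with mesoderm, against 238, 268, 245 and 134 alone. Both arrays of set 4 were low, and the conditions overlapped. The difference was -0.05 ± 0.18 (adjusted p 0.939), while 96.2% of its sum of squares lay between sets. A second foxa4 probe set, named pintallavis in the table and matched to foxa4.L, falls outside the name rule. It gave 64.9, 45.6, 87.1 and 39.3 with mesoderm, against 63.1, 70.3, 97.6 and 38.6 alone. Its difference was -0.18 ± 0.31 (adjusted p 0.776), and set 4 was lowest here too.

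Foxo3 was the 1 FoxO gene found among the named probe sets; none matched foxo1. Its intensities were 157, 242, 206 and 253 with mesoderm, against 168, 263, 194 and 379 alone. The highest value was that of set 4 alone, the lowest were both of set 1, and the conditions overlapped. The difference was -0.18 ± 0.28, with a 95% interval from -0.49 to 0.13 and an adjusted p of 0.767. Differences between sets held 84.1% of its sum of squares and the condition 5.62%. Leaving out the array of set 4 alone in the fit without a block turned the difference to 0.04, which then also holds differences between sets.

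The FoxI subfamily, whose members act in frog ectoderm, had 3 probe sets that did not behave alike. XFD2′ and XFD2 match the S and L copies of foxi4.2, so near-identical transcripts could bind to both probe sets. XFD2′ had intensities of 36.8, 29.0, 28.0 and 30.1 with mesoderm, against 27.1, 23.5, 16.8 and 13.6 alone. As intensities, every array with mesoderm lay above every array alone. As levels over the controls (0.72, 0.51, 0.28 and 0.20 with mesoderm, against 0.18, 0.30, -0.61 and -0.62 alone, in log2) the conditions overlapped. All 8 arrays lay under the background limit, so no fold change is given. In sets 1 to 4 the differences were 0.44, 0.31, 0.74 and 1.14, with a mean of 0.66 ± 0.37 and a 95% interval from 0.30 to 1.01. The unadjusted p was 0.0027 and the adjusted p 0.183. With array weights the adjusted p was 0.0388 and the difference 0.51, without a share of all probe sets called to set beside it. Centred on the negative controls, the difference was 0.61 and the adjusted p 0.93.

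XFD2 gave 92.3, 92.9, 172 and 98.4 with mesoderm, against 115, 102, 259 and 45.7 alone. It was highest in both arrays of set 3, and the array of set 4 alone was the only one under the background limit. The differences of -0.32, -0.14, -0.59 and 1.11 in sets 1 to 4 ran against each other, with a mean of 0.02 ± 0.75 and an adjusted p of 0.99. The third, foxi1, which specifies ectoderm and ionocyte fates in the frog, lay under background on every array, between 31.6 and 36.3 with mesoderm and between 27.3 and 36.8 alone. Its difference was 0.05 ± 0.19 (adjusted p 0.937).

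FoxC genes act in paraxial mesoderm, heart and blood vessels, as known from mouse. Foxc2 had intensities of 94.1, 54.6, 38.4 and 46.7 with mesoderm, against 51.4, 44.5, 37.4 and 29.0 alone. The 2 highest were those of sets 1 and 2 with mesoderm, the only ones above background, and the conditions overlapped. The differences of 0.87, 0.29, 0.04 and 0.69 in sets 1 to 4 averaged 0.47 ± 0.38, with a 95% interval from 0.12 to 0.83. The unadjusted p was 0.0158 and the adjusted p 0.353. Relative to the negative controls the difference was 0.42, with an unadjusted p of 0.0535.

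Foxc1 was under background on every array, with 32.9, 25.9, 44.8 and 16.7 with mesoderm, against 29.4, 24.1, 47.6 and 11.6 alone. Both arrays of set 4 were low and both of set 3 high, and the difference was 0.18 ± 0.26 (adjusted p 0.763). Foxf1, the marker of visceral mesoderm, was under background in all 8 arrays. It ran from 24.4 to 32.4 with mesoderm and from 21.3 to 31.9 alone. Its difference was 0.00 ± 0.34, with a 95% interval from -0.33 to 0.34.

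**Figure D3:**
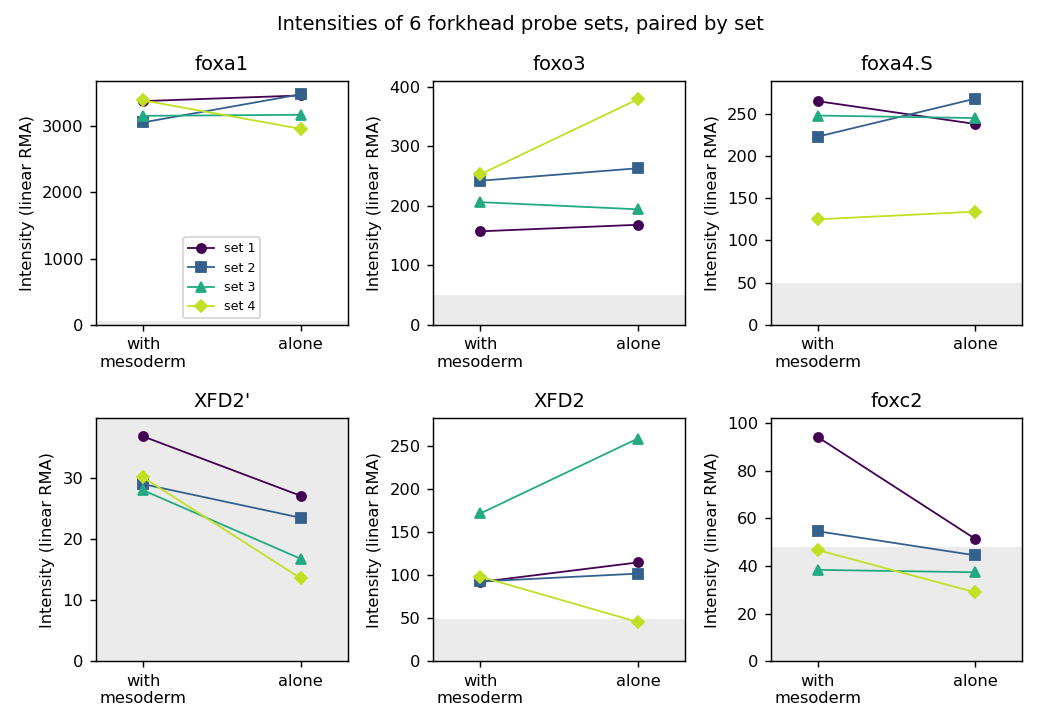
Linear intensity (vertical axis, from 0) of 6 forkhead probe sets in endoderm with mesoderm and endoderm alone, with a line joining the 2 arrays of each set; grey marks intensities under 47.7, the lowest background limit of any array. The lines of foxa1 and foxa4.S slope either way, those of XFD2′ all slope down to the endoderm alone but stay in the grey, and the line of set 4 for XFD2 runs against the other 3.

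The FoxD subfamily was the most represented, with 8 probe sets, of which 6 were under background on every array. XFD-12′, a copy of foxd4l1 (FoxD5), which in the frog holds the neural plate in an immature state, was above background throughout. It gave 113, 94.0, 107 and 150.4 with mesoderm, against 121, 76.3, 131 and 107 alone, and the values of the conditions overlapped. Its difference was 0.10 ± 0.36 (adjusted p 0.893). The other foxd4l1 probe sets, XFD-12″ and FoxD5a, stayed under background with differences of 0.09 ± 0.34 and 0.04 ± 0.30. FoxD5a could not be assigned to 1 of the foxd4l1 copies.

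Foxd3, a regulator of neural crest, had 2 probe sets, both under background on all arrays. Intensities of foxd3-A ran from 15.1 to 19.2 with mesoderm and from 15.2 to 19.7 alone, and those of foxd3b-A from 18.8 to 29.5 with mesoderm and from 17.4 to 22.8 alone. Their differences were -0.01 ± 0.23 and 0.16 ± 0.20. Foxd1, a forebrain gene also called BF-2, likewise had 2 probe sets, and these disagreed about its presence. The first was above background on 2 arrays with mesoderm and 3 alone, with a difference of 0.04 ± 0.25, and the second on none, with -0.09 ± 0.33. Foxd2 was under background on every array, with a difference of 0.10 ± 0.09.

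Foxn4, known in mouse from retinal and spinal cord precursors, was above background on all arrays, at 84.0, 60.2, 95.5 and 117 with mesoderm, against 95.8, 60.4, 113 and 101 alone. Both values of set 2 were the lowest, and the difference was -0.06 ± 0.20 (adjusted p 0.928). Foxb1, expressed in the neural plate, and foxn5, listed by RefSeq as foxr1, stayed under background, with differences of 0.04 ± 0.24 and -0.13 ± 0.56.

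Besides pintallavis, 2 more forkhead genes were recognised through RefSeq but lie outside the name rule. Foxh1 was above background on every array, at 77.8, 64.7, 97.4 and 117 with mesoderm, against 79.5, 56.5, 88.9 and 69.3 alone. The highest value was that of set 4 with mesoderm, and the conditions overlapped. Its difference was 0.26 ± 0.34, with a 95% interval from -0.08 to 0.60 and an adjusted p of 0.675. The lens gene lens1, matched to foxe3, was under background on all 8 arrays, with a difference of 0.20 ± 0.25. No named probe set matched foxm1 or foxj1. Of the 15611 probe sets, 5642 could be given a single gene name, so forkhead genes on probe sets without a usable name would be missed.

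Of the 21 forkhead probe sets, 20 had a larger share of their sum of squares between sets than between conditions. The exception was XFD2′, with 31.7% between sets and 55.0% between conditions. The set has 3 degrees of freedom and the condition 1, so these shares are not alike by construction. At the median, the set held 62.3% of the sum of squares of a forkhead probe set and the condition 2.03%; over all probe sets these were 73.6% and 4.21%. A difference of at least 2-fold between the means of sets was found for 9.52% of forkhead probe sets and 19.4% of all. The 2 forkhead probe sets were foxc1, at 3.32-fold, and XFD2, at 3.15-fold, both highest in set 3 and lowest in set 4. As intensities, 14 of the 21 were lowest in set 2 and 9 highest in set 3. The mean of the negative controls was also lowest on the arrays of set 2, at 4.35 with mesoderm and 4.25 alone (log2). The order of sets was not counted over all probe sets, so whether it is particular to the family is not known.

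Set 4 stood apart in the difference between conditions as well. The median difference of the forkhead probe sets was -0.10, 0.10, -0.09 and 0.36 in sets 1 to 4, and 7, 12, 6 and 19 of the 21 lay above 0. Of all 15491 probe sets, 7035, 8626, 6990 and 8409 lay above 0 in sets 1 to 4. The negative controls had medians of -0.0798, 0.0697, -0.130 and 0.365, while all probe sets together had -0.02, 0.03, -0.03 and 0.05. Among the 12 forkhead probe sets under background, 12 lay above 0 in set 4, with a median of 0.38. The same count was not made over the other probe sets under background, so it is not read as a trait of the family. Centred on the negative controls, the median difference of the family over all sets was -0.01. In each of the 4 leave-outs of a whole set, 0 forkhead probe sets were called, without the share of all probe sets called beside it.

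**Figure D4:**
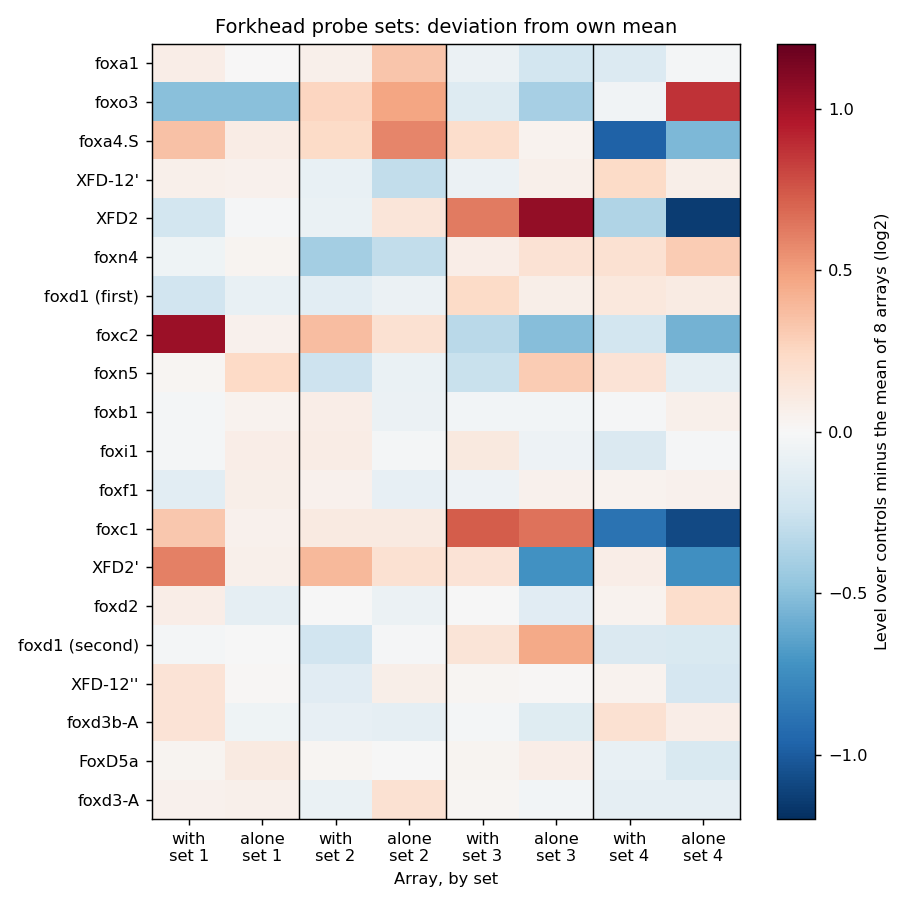
Level over negative controls of 20 forkhead probe sets on each array, minus its mean over the 8 arrays (log2, colour scale), with the arrays ordered by set and, within a set, endoderm with mesoderm left of endoderm alone. XFD2 and foxc1 are red in both arrays of set 3 and blue in both of set 4, foxa4.S is blue in both arrays of set 4, and foxo3 is blue in both of set 1 and darkest red in set 4 alone.

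Genes that forkhead factors act with were then taken from lists, with 1 probe set per gene. In the FoxO pathway, 13 kinases and insulin or growth factor signalling genes upstream of FoxO were measured. Of these, 0 were called higher and 1 lower, where 0.258% of all probe sets were called higher and 0.129% lower. Their median difference was -0.10, and that of all probe sets 0.01. The called gene was sgk1, a kinase that phosphorylates FoxO proteins in mammals. Sgk1 had intensities of 130, 135, 122 and 451 with mesoderm, against 1448, 1970.2, 1927 and 2550.4 alone, and the conditions did not overlap. It fell by 3.46 ± 0.67 log2 units (adjusted p 0.00532), and the call was lost when the block was dropped (0.145) or set 2 left out (0.0502). Of the others, irs4, an insulin receptor substrate, differed by -0.56 ± 0.35 (adjusted p 0.238) and akt2 by -0.15 ± 0.21 (adjusted p 0.787). Irs1, another such substrate, differed the other way, by 0.56 ± 0.42 (adjusted p 0.279), and its other probe sets by 0.28 and 0.27. Of the 13 genes, 5 lay above 0 and 8 below, where 51.6% of all probe sets lay above 0.

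Among 13 measured genes known from mammals as FoxO targets, 0 were higher and 2 lower, where 0.129% of all probe sets were called lower. Of the 13, 9 lay below 0 (48.4% of all probe sets did), with a median of -0.29. The 2 called were pdk4 and sesn1. Pdk4, the kinase that turns off pyruvate dehydrogenase in fasting, had 393, 396, 362 and 532 with mesoderm, against 707, 646, 726 and 981 alone. Its conditions did not overlap, and it fell by 0.86 ± 0.12 log2 units (adjusted p 0.0348). Sesn1, a stress-response protein that restrains mTOR, had 374, 265, 159 and 533 with mesoderm, against 700, 430.3, 268 and 1236 alone.

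Sesn1 was lower with mesoderm in every set although the ranges of the conditions overlapped, and it fell by 0.89 ± 0.23 log2 units (adjusted p 0.0415). Neither call held without the set block (adjusted p 0.485 for pdk4 and 1.0 for sesn1), nor when set 1, 2 or 3 was left out (0.132 to 0.207 for pdk4 and 0.117 to 0.235 for sesn1), nor after centring on the controls (0.668 and 0.784). With the set as a random effect, at an estimated correlation, sesn1 was lost (adjusted p = 0.183), and it was lost with dim probe sets left out (0.0527). Pdk4 was lost with cyclic loess (0.0634) and repeated quantile normalization (0.0591). Gadd45g at -1.09, g6pc at -0.93 and cat at -0.47 had an unadjusted p under 0.05, and each had an adjusted p of 0.172 or more. The other probe set of g6pc differed by -1.23, and that of cat by 0.07, the other way. Igfbp1 differed by -0.29 ± 0.37 and ccnd1 by 0.42 ± 0.71, with adjusted p of 0.655 and 0.686. The low values of sgk1, pdk4, sesn1 and gadd45g were known when the lists were drawn up, and their counts are no independent evidence of a direction. The protein and its place in the cell, through which FoxO3 is regulated, were not measured.

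**Figure D5:**
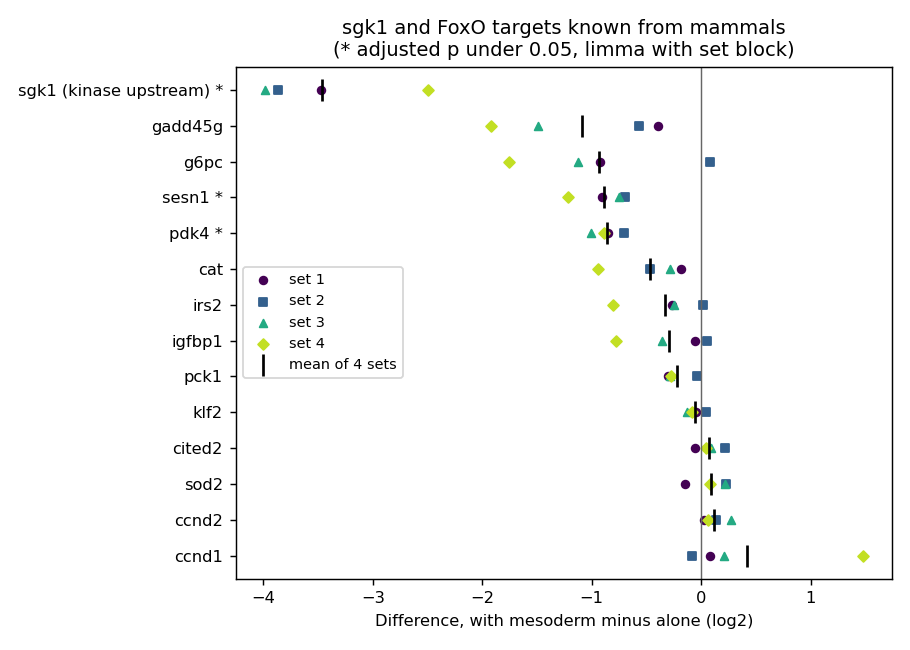
Difference between endoderm with mesoderm and endoderm alone (log2, horizontal axis) in each of the 4 sets for sgk1 and for the 13 measured genes known from mammals as FoxO targets, with the mean of the sets as a black bar and an asterisk at an adjusted p under 0.05. The mean of sgk1 lies at -3.46, pdk4 and sesn1 lie left of 0 in all 4 sets, and set 4 is the farthest from 0 for gadd45g, g6pc, sesn1, cat and ccnd1.

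Of 18 measured endoderm and early liver genes tied to FoxA, 0 were called higher and 1 lower, where 0.129% of all probe sets were called lower. Their median difference was -0.03, beside the foxa1 difference of -0.01. The gene called lower was ambp, a liver plasma protein precursor, at 109, 1109, 80.5 and 1124 with mesoderm, against 412, 2678, 221 and 4270.1 alone. It was far higher in sets 2 and 4 than in sets 1 and 3, so the conditions overlapped, although it was lower with mesoderm in each of the 4 sets. It fell by 1.64 ± 0.33 log2 units (adjusted p 0.0159), which did not hold without the set block (1.0), without set 1 (0.0939), without set 2 (0.0752), at an estimated correlation with the set as a random effect (0.308) or after centring on the controls (0.55), while its other probe set differed by -0.03. Sox17a at -0.53 ± 0.65, gata6 at -0.26 ± 0.25 and hnf4a at -0.15 ± 0.19 were not called (adjusted p 0.51, 0.625 and 0.777). The FoxA list, too, was drawn up with earlier results known, so its count is no independent evidence of a direction.

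Of 26 Nodal pathway genes around FoxH1, 0 were called in either direction, where 0.387% of all probe sets were. Of the 26, 20 lay above 0 and 6 below, with a median of 0.06, where 51.6% of all probe sets lay above 0. Smad7, an inhibitor of the pathway, differed by 0.62 ± 0.56 (adjusted p 0.343), and its other probe sets by 0.28 and 0.35. Acvr2b, an activin receptor, differed by 0.10 ± 0.32 (adjusted p 0.891). Lhx1, above background on 1 array, differed by 0.36 ± 0.33 (adjusted p 0.49). Of 21 genes of the Hedgehog pathway and of the visceral mesoderm around FoxF1, 0 were called. Of the 21, 16 lay above 0 and 5 below, and the median was 0.11. Among these tbx2 differed by 0.55 ± 0.32, smo by -0.36 ± 0.18, bmp4 by 0.37 ± 0.58 and gata4 by -0.05 ± 0.73, with adjusted p of 0.233 or more. The other probe set of bmp4 differed by -0.07, and those of smo by -0.17 and -0.09.

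Of 23 mitotic genes known in mammals as FoxM1 targets, 0 were called. Of the 23, 20 lay below 0 (48.4% of all probe sets did), with a median of -0.11. The differences were -0.34 ± 0.15 for cdc20, -0.35 ± 0.31 for ccnb2, -0.31 ± 0.27 for ccnb3 and -0.20 ± 0.05 for plk1, and the lowest adjusted p of these was 0.364. With cyclic loess the same genes differed by -0.29, -0.30, -0.26 and -0.15. Of 7 motile cilium genes tied to FoxJ1, 6 lay under background on all arrays and 0 were called. Kif3b, a kinesin motor above background throughout, differed by 0.29 ± 0.55, and dnah9 and myb, under it throughout, by 0.13 ± 0.30 and 0.17 ± 0.15.

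Markers of other tissues were measured beside the 2 forkhead probe sets with the lowest unadjusted p. Of all probe sets, 51.6% lay above 0. The negative controls had a median difference of 0.365 in set 4, and its part in the markers near background was not tested. Of 15 notochord and somite markers 14 lay above 0 (median 0.16), with summed intensities of 1489 to 2253 with mesoderm and 1226 to 1909 alone, and 4 of them (not, shh, tnnt3 and ckm) were above background on all 8 arrays and 8, among them tbx6, myf5 and myf6, on none. Of 13 lateral plate and cardiac markers 11 lay above 0 (median 0.20), with sums of 1916 to 3221 with mesoderm and 1749.6 to 2883 alone, and 7 (hand1, hand2, nkx2-3, myh6, gata4, bmp4 and tbx2) were above background on all arrays and 5 (tbx5, tbx20, tnni3, myl7 and wt1) on none. Neither list held a called gene. The same gata4 probe set is also on the list of endoderm markers, and that of shh on the list of endoderm genes tied to FoxA. All 16 blood and vascular markers lay above 0 (median 0.36), from 0.03 for hba1 and kdr to 2.08 for mpo (adjusted p 0.174). Csf2rb, lcp1 and prtn3 rose (adjusted p 0.0292, 0.049 and 0.049, none without the set block), where 0.258% of all probe sets were called higher. This list was drawn up with earlier results of these data known, so its counts are no independent evidence of a direction. The sums were 3291 to 5876 with mesoderm and 2121 to 2833 alone, of which mpo by itself held 1065 to 2881 with mesoderm and 125 to 979.7 alone. In this list 5 (lmo2, gata1, gata2, mpo and cebpa) were above background on all arrays and 4, among them hba1, tek and erg, on none. Cebpa is also on the list of endoderm genes tied to FoxA. Of 7 epidermal markers, a tissue in which FoxI genes act, 5 lay above 0 (median 0.18), with sums of 1181 to 1821 with mesoderm and 1007 to 1983 alone. Of these, 1 (krt70) was above background on all arrays and 3 on none, and krt70 by itself held 899 to 1542 with mesoderm and 795 to 1690.4 alone. Of 20 neural and crest markers 13 lay above 0 (median 0.05), with sums of 5385 to 11354 with mesoderm and 7018 to 12597 alone. Of these, 5 were above background on all arrays and 10 on none, and pax3 by itself held 2632 to 7702 with mesoderm and 4576 to 8299.9 alone. The part of any of these tissues in the values of XFD2′ and foxc2 was not tested.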

How the data were processed

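Values are RMA expression values, per the labels, deposited by the authors as linear intensity per probe set. RMA subtracts background, makes the probe distributions of all arrays equal and combines probes into 1 value per probe set, which can compress the differences of dim ones. Which program and version ran it was not given in the sources used here. The deposited annotated table and series matrix agreed in 124888 of 124888 cells. Precision is limited by the number of arrays (8). The files hold no genome positions or probe sequences used here.

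Log2 intensities were fitted in limma 3.58.1 (R 4.3.3) with condition and set number as terms, Benjamini-Hochberg adjustment over 15491 probe sets and a threshold of 0.05. The set was a block because the plan for this family paired the arrays by set number. The members themselves were chosen by name, and the labels do not say what joins the arrays of a set. Deviations of paired arrays from the means of their conditions correlated at 0.844, 0.850, 0.689 and 0.321 in sets 1 to 4. On simulated data for 15491 probe sets, this fit recovered 72% of changes of 1 log2 unit and 94% of changes of 2, with 2 false calls. The simulation changed 100 probe sets by each size and drew independent normal errors, without the weaker pairing of set 4. Forkhead differences ran from -0.18 to 0.66, sizes that were not simulated, so these rates do not carry over to them.

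Differences are with mesoderm minus alone, and ± is the SD of the 4 within-set differences unless stated. Linear intensities are listed in the order of sets 1 to 4. Values in all 8 arrays were given for the brightest members, for those with the lowest p among the members above background and for a list of known genes; from each pathway list, the called genes, the 2 with the lowest p and the 2 brightest were named. Others, such as irs1, gadd45g, g6pc and cat, were picked with their values in view. The members and lists were chosen with earlier results of these data known. The values of 1 member are not reported here, though counts and medians over the 21 include it.

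Alternatives were no set block, the set as a random effect, cyclic loess, repeated quantile normalization, centring on negative controls, trended robust variance, array weights, a filter on dim probe sets, the series matrix, other thresholds and background limits, and leaving out each set or array.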

Additional observations from a re-analysis of the deposited data

Results flagged for a closer look

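Of 48 groups of 4 arrays tested with Dixon's ratio, 24 forkhead probe sets in 2 conditions, 2 held an array far from the other 3, and chance marks about 1 in 20. For foxa4.S in endoderm alone, set 4 was the lowest array, with a gap to the next of 0.831 of the whole range and a level of 2.68 over the controls (log2). The foxa4.S array of set 4 with mesoderm was the lowest of its condition as well. For XFD2 in endoderm with mesoderm, set 3 was the highest array, with a ratio of 0.897 on log2 intensities. Its levels over the controls were 2.05, 2.19, 2.90 and 1.91 in sets 1 to 4, where the gap again fell under the critical value. The XFD2 array of set 3 alone was the highest of its condition too.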

How the results depend on the processing

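Of 21 settings, 5 cannot move a difference in this balanced design (no block, random block, trended variance, the dim filter and the series matrix, whose values are identical). Over the other 16, the differences of 20 forkhead probe sets gave 320 values, of which 229 kept their sign, 59 turned it and 32 were 0.00 there or at first. The 16 include leave-outs of single arrays, fitted without the set block, where differences between sets enter the condition difference. 1 probe set gained a call. This was XFD2′, under array weights, which called 1 forkhead probe set higher (difference 0.51). The share of all probe sets called under array weights is not given here, so this call is not read as a trait of the family. The FoxO target list held 3 lower calls under array weights, against 2 in the main fit, also without that share beside them. All leave-outs called 0 forkhead probe sets. Without the set block 0.0% of all probe sets were called even with all arrays, so the leave-outs of single arrays could hardly give a call. The share of all probe sets called in each leave-out is not given here. With the mean of the controls plus 1 as limit, 8 forkhead probe sets lay above background on all arrays. No difference that changed sign was called in any setting. Without the set block, which pairs arrays by set, the FoxO upstream, FoxO target and FoxA lists each held 0 lower calls, against 1, 2 and 1 with it. FoxO targets held 1 lower call with the set as a random effect, cyclic loess, quantile normalization or the dim filter, and 0 after centring on controls. The FoxA list held 0 with the random effect and after centring. Leaving out sets or arrays gave 0 to 1 upstream, 0 to 2 target and 0 to 1 FoxA calls. Signs turned for foxa1 with cyclic loess (0.04) and quantile normalization (0.07). Quantile normalization gave -0.01 for FoxD5a, -0.01 for XFD2 and 0.01 for gata4. Centring gave -0.01 for FoxD5a, foxb1 and the first foxd1, and -0.04 for XFD2. Array weights gave -0.07 for FoxD5a and the first foxd1, -0.02 for XFD-12″ and foxb1, -0.01 for foxi1, -0.26 for XFD2 and 0.24 for gata4. The cause was not tested.

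Signs also turned in leave-outs of sets or arrays. Those of single arrays were fitted without the set block, which leaves an array unpaired and lets differences between sets enter the condition difference. The ranges pool these with leave-outs of whole sets, so a turned sign need not arise within sets. Differences ran from -0.35 to 0.04 for foxo3, -0.08 to 0.05 for foxa1, -0.11 to 0.10 for foxf1 (0.00 with all arrays), -0.37 to 0.07 for foxn5, -0.09 to 0.13 for FoxD5a, -0.07 to 0.20 for XFD-12″ and -0.06 to 0.23 for XFD-12′. They ran from -0.06 to 0.12 for foxb1, -0.06 to 0.14 for the first and -0.23 to 0.11 for the second foxd1, -0.25 to 0.12 for foxn4 and -0.27 to 0.19 for foxa4.S. They ran from -0.03 to 0.14 for foxi1, -0.12 to 0.06 for foxd3-A, -0.19 to 0.49 for foxc1, -0.40 to 0.43 for XFD2 and -0.42 to 0.02 for pintallavis. Among list genes they ran from -0.49 to 0.01 for igfbp1, -0.80 to 0.06 for sox17a, -0.48 to 0.10 for hnf4a, -0.02 to 0.23 for acvr2b, -0.19 to 0.86 for bmp4, -0.33 to 0.42 for gata4 and -0.02 to 0.24 for dnah9. Signal over background limits the 12 forkhead probe sets that never exceeded the controls.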
